A study of Mus musculus with 2 samples.

Results

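Dusp1, Dusp2, Dusp5 and Dusp6, which encode dual-specificity phosphatases of the MAP kinases, were followed through the blood cells of WT and APP/PS1 mice. They were taken by gene symbol and are 4 of the 32285 genes in the count tables. APP/PS1 mice carry a mutant amyloid precursor protein transgene and a mutant presenilin 1 transgene and model amyloid deposition in Alzheimer's disease, and C57BL/6J mice served as WT. Neutrophils were enriched from blood of 7-month-old female mice, cells of 3 mice were pooled for each genotype, and each pool gave 1 droplet library. A difference between the libraries therefore has no replicate check, no test was made, and every interval below is a 95% interval for counting error only. The promoters that drive the transgenes are not given in the sources used here.

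The WT library held 17123 cells and 92458623 UMIs (unique molecular identifiers, each standing for 1 captured transcript), and for APP/PS1 the numbers were 17645 cells and 84870864 UMIs. After filtering, 14564 WT and 15208 APP/PS1 cells were kept, and clusters were named by marker genes without using the phosphatases as features. Both libraries are labelled as neutrophils, but marker genes placed 7582 WT and 9590 APP/PS1 cells in that type and the others in monocytes, lymphocytes, basophils, erythroid cells and platelets. The 7 neutrophil markers summed to 181003 CPM (UMIs per 1000000 UMIs of the cells summed) in WT and 153399 CPM in APP/PS1 neutrophils, against 8797 to 19346 CPM in monocytes. A total of 83 barcodes occurred in both libraries. The clusters called neutrophils include 1, cluster 3 of all cells, whose leading genes are interferon and platelet genes, so values are also given without it.

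MAP kinases (ERK, JNK and p38) are switched on by phosphorylation of a threonine and a neighbouring tyrosine, and dual-specificity phosphatases take both phosphates off again. Transcription of several of these phosphatases is itself induced by MAP kinase signalling, so they act as delayed negative feedback. Dusp1 and Dusp2 encode nuclear enzymes, Dusp1 acting mainly on p38 and JNK. Dusp5 encodes a nuclear and Dusp6 a cytoplasmic enzyme, both selective for ERK. In myeloid cells Dusp1 is known for limiting cytokine production after Toll-like receptor stimulation, and Dusp2 was first described in activated T cells.

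The genes lie on 4 chromosomes of mm10 and are protein coding in GENCODE M21. Dusp1 (ENSMUSG00000024190) is at chr17:26505590-26562128 on the minus strand, where the start of Ergic1 overlaps it on the opposite strand. Dusp2 (ENSMUSG00000027368) is at chr2:127336159-127338376, Dusp5 (ENSMUSG00000034765) at chr19:53529109-53542431 and Dusp6 (ENSMUSG00000019960) at chr10:99263231-99267489, all on the plus strand. An antisense gene overlaps the start of Dusp5.

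Promoter sequence of the 4 genes is shown as a description, and no relation between its motifs and expression was tested. The windows are RefSeq sequence of GRCm38.p6 that starts 250 bases before the RefSeq start. Bases inside a GENCODE first exon were left out of print, 47 for Dusp1 and 36 for Dusp5, which leaves 203 and 214 bases for these and 250 for Dusp2 and Dusp6. The windows are read 5' to 3' on the gene's strand, at chr17:26508520-26508722 (minus strand), chr2:127335909-127336158, chr19:53528895-53529108 and chr10:99262981-99263230. The Dusp1 window precedes the first exon of the transcript Dusp1-202 and lies inside the gene span given above, since the transcript Dusp1-205 starts farther upstream. Capitals mark matches to the cAMP response element TGACGTCA, its shorter core TGACG, the E-box CACGTG or the CArG box bound by serum response factor, on either strand.
Dusp1: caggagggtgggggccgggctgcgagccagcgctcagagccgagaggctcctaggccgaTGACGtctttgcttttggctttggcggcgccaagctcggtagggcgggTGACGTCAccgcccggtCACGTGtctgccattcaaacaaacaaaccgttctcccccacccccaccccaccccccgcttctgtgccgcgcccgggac
Dusp2: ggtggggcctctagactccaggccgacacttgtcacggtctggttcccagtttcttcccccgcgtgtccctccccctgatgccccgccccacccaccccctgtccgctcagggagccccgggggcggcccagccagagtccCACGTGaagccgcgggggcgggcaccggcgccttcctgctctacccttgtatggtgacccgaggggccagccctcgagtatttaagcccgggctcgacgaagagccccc
Dusp5: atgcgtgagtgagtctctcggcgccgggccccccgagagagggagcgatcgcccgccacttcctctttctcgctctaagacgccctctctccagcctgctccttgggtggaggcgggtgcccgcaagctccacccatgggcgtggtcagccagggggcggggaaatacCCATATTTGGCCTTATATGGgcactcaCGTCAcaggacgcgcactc
Dusp6: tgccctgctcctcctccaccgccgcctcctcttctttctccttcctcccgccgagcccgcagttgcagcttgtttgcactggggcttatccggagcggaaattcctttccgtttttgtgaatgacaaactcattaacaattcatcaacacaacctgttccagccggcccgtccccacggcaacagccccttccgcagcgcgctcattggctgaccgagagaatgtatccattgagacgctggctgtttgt
The Dusp1 window held 1 full cAMP response element, present in 1.55% of all 32851 promoter windows of the same 250 bases, and 3 matches to the core, 2 of them inside the full element. The core alone occurred in 17.8% of windows. The Dusp1 and Dusp2 windows each held 1 E-box, found in 6.02% of windows. The Dusp5 window held 2 adjoining CArG boxes, a motif in 1.47% of windows, and 1 core match downstream of them. Searches for the AP-1 site TGANTCA, the NF-kB site and the glucocorticoid response element, which occurred in 6.75%, 7.25% and 0.387% of windows, gave no match in any of the 4 windows. The Dusp6 window held none of the motifs searched. A match is a description of letters and not a measured binding site.

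Dusp1 was a neutrophil-high transcript. Its level was 4009 CPM in WT neutrophils and 4280.1 CPM in those of APP/PS1, with counting intervals of 3983 to 4036 and 4257 to 4304. Classical monocytes had 908 and 1115 CPM, so neutrophils stood 4.42-fold and 3.84-fold above them within the WT and the APP/PS1 library. Nonclassical monocytes had 1386 and 1700.2 CPM, and basophils 1896 and 2354 CPM. CD8 T cells, with 622 and 672 CPM, and B cells, with 458 and 404 CPM, were lowest. NK cells had 794 and 950.3 CPM and were below classical monocytes within each library. The ranges of both types over the libraries overlapped, since APP/PS1 NK cells were above WT classical monocytes. The cluster called plasma cells stood next below neutrophils, at 2911 and 3697 CPM, and is taken up below with its neutrophil RNA. Neutrophils thus exceeded B cells 8.75-fold in WT and 10.6-fold in APP/PS1. Taken over both libraries, the ranges of nonclassical monocytes, erythroid cells, classical monocytes and NK cells overlapped from each type to the next. So did those of NK cells and a small group of T cells led by Il7r and Trdc. Within each library nonclassical monocytes were above erythroid cells, with intervals of 1367 to 1406 against 825 to 908 CPM in WT. In APP/PS1 these intervals were 1673 to 1728 against 1401 to 1554 CPM.

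**Figure D1:**
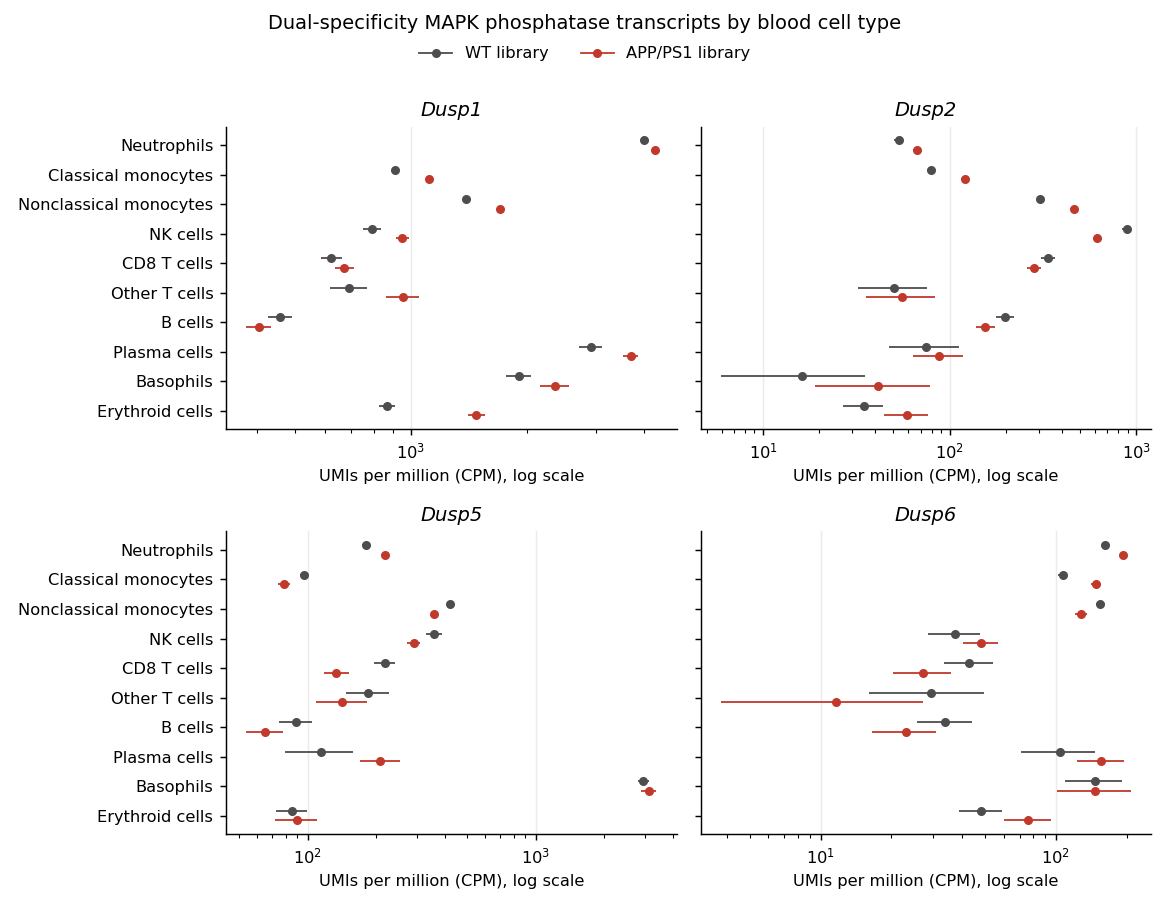
CPM (UMIs per 1000000 UMIs, log scale) of each phosphatase in 10 blood cell types, with the WT library in grey and the APP/PS1 library in red and bars for the 95% counting interval. Dusp1 is highest in neutrophils (4009 and 4280.1 CPM), Dusp2 in NK cells (887 and 619 CPM), Dusp5 in basophils (2965 and 3127 CPM) and Dusp6 in neutrophils (162 and 192 CPM).

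Part of the Dusp1 signal outside neutrophils stood beside neutrophil RNA. Summed S100a8, S100a9 and Retnlg in NK cells reached 10.6% of the neutrophil level in WT and 11.5% in APP/PS1, which at the neutrophil ratio would bring 425 and 492 CPM of Dusp1 with it. The corresponding value in B cells was 283 CPM of 458 in WT and 179 CPM of 404 in APP/PS1. Erythroid cells held neutrophil genes at 18.6% and 27.0% of the neutrophil level, which would carry 746 of 866 CPM and 1157 of 1476 CPM. The cluster called plasma cells had 2911 and 3697 CPM of Dusp1 with neutrophil genes at 50.8% and 32.4%. A narrower plasma cell cluster at a resolution of 0.5, of 46 and 80 cells, had 901 and 1119 CPM. The share of these levels that comes from neutrophil RNA was not tested. The values carried the same way were 5.65 and 7.68 CPM of Dusp2 in NK cells and 19.0 and 18.2 CPM of Dusp5 in basophils, small beside the levels of those genes there. For Dusp6 they were a larger part of the low levels, at 17.1 of 37.2 CPM and 22.1 of 48.1 CPM in NK cells, 12.4 of 42.7 CPM and 18.3 of 27.4 CPM in CD8 T cells and 82.2 of 104 CPM and 62.2 of 155 CPM in the plasma cell cluster. In the APP/PS1 T cells led by Il7r and Trdc the carried value of 13.6 CPM exceeded the 11.6 CPM of Dusp6 measured.

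Dusp2 had a different order, with lymphoid cells and nonclassical monocytes on top. NK cells had 887 and 619 CPM in the WT and APP/PS1 library, and neutrophils 53.3 and 66.8 CPM, which is 16.6-fold and 9.26-fold less. Nonclassical monocytes had 303 and 465 CPM, CD8 T cells 336 and 283 CPM and B cells 199 and 155 CPM. The ranges of nonclassical monocytes and CD8 T cells overlapped: CD8 T cells were higher in WT and nonclassical monocytes were higher in APP/PS1. The 2 kinds of monocyte differed, since nonclassical monocytes exceeded classical monocytes (79.3 and 120.3 CPM) 3.82-fold in WT and 3.86-fold in APP/PS1. CD8 T cells exceeded the T cells led by Il7r and Trdc (50.6 and 55.8 CPM) 6.63-fold and 5.07-fold. Basophils were lowest, with 6 Dusp2 UMIs in WT and 9 in APP/PS1.

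Dusp5 was a basophil transcript above all. Basophils had 2965 CPM in 72 WT cells and 3127 CPM in 43 APP/PS1 cells, with counting intervals of 2792 to 3146 and 2896 to 3371. The next type, nonclassical monocytes, had 422 and 359 CPM, so basophils exceeded them 7.03-fold and 8.71-fold. NK cells followed with 357 and 292 CPM, neutrophils with 179 and 218 CPM and CD8 T cells with 217 and 134 CPM. Neutrophils and CD8 T cells overlapped. Classical monocytes had 96.4 and 78.8 CPM, which nonclassical monocytes exceeded 4.38-fold in WT and 4.56-fold in APP/PS1. Dusp5 was lowest in B cells, at 88.5 and 65.1 CPM, where classical monocytes, erythroid cells and B cells were not separated.

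Dusp6 was higher in neutrophils, basophils and monocytes than in NK, T and B cells. Neutrophils had 162 and 192 CPM, basophils 146 and 147 CPM, nonclassical monocytes 154 and 128 CPM and classical monocytes 107 and 147 CPM. The library ranges of neutrophils lay above those of basophils, but the within-library interval of the neutrophil to basophil ratio reached from -0.24 to 0.56 (log2) in WT and from -0.11 to 0.93 in APP/PS1, so that pair was not separated. In WT the neutrophil to nonclassical monocyte fold of 1.05 also had an interval reaching 1, from 0.993 to 1.11, while in APP/PS1 the fold was 1.51. The lymphoid types other than the plasma cell cluster were lower, with 37.2 and 48.1 CPM in NK cells, 42.7 and 27.4 CPM in CD8 T cells and 33.9 and 23.0 CPM in B cells. The plasma cell cluster had 104 and 155 CPM, level with classical monocytes, and the narrower plasma cell cluster had 39.5 and 40.9 CPM on 5 and 8 UMIs. Neutrophils exceeded NK cells 4.35-fold and 3.99-fold and B cells 4.77-fold and 8.37-fold.

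The share of cells with a UMI gave the same leading types for Dusp1, Dusp2 and Dusp5 after every cell was thinned to 1000 UMIs. Erythroid cells are given beside them for comparison. Their erythroid markers summed to 630365 and 567735 CPM, so fewer of the 1000 UMIs were left for other transcripts. They also held neutrophil genes at 18.6% and 27.0% of the neutrophil level and are no reference free of leukocyte RNA. Median depth was 2553 and 2703.5 UMIs in neutrophils, 3596 and 3361.5 in NK cells, 4443 and 4664 in basophils and 7485 and 7487 in erythroid cells, and thinning left out 2 APP/PS1 neutrophils and 1 APP/PS1 NK cell of these types. Dusp1 was found in 94.99% of WT and 94.6% of APP/PS1 neutrophils against 42.9% and 67.6% of erythroid cells, and before thinning in 99.6% and 99.3% against 79.9% and 95.7%. Dusp2 was found in 53.2% and 40.4% of NK cells against 1.16% and 2.88% of erythroid cells, and before thinning in 85.6% and 73.7% against 13.5% and 20.1%. Dusp5 was found in 83.3% and 79.1% of basophils against 6.18% and 6.47%, and before thinning in 98.6% and 93.0% against 32.8% and 41.7%. Dusp6 was found in 13.8% and 16.2% of neutrophils against 3.86% and 5.76%, and before thinning in 31.5% and 37.2% against 25.5% and 30.9%. WT nonclassical monocytes, with 13.96% after thinning, stood next to WT neutrophils for Dusp6 rather than below them. Dusp1 was therefore detected in nearly every neutrophil, while most thinned neutrophils showed no Dusp2, Dusp5 or Dusp6.

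All 4 phosphatases were higher in APP/PS1 than in WT neutrophils, by amounts below the study's fold limit of 0.5 on the log2 scale. The log2 ratio of APP/PS1 to WT was 0.09 for Dusp1, with a counting interval of 0.08 to 0.11. It was 0.33 (0.22 to 0.43) for Dusp2, 0.28 (0.22 to 0.34) for Dusp5 and 0.25 (0.19 to 0.31) for Dusp6. Of the 4, 0 passed the fold limit, against 5.87% of the 6151 genes that reached 200 UMIs in either library. The median gene stood at 0.06. Dusp1 lay above 58.7% of those genes, Dusp6 above 84.2%, Dusp5 above 87.3% and Dusp2 above 90.7%. Without cluster 3 of all cells and the immature cells of cluster 9, the ratios in cluster 0 were 0.11, 0.36, 0.34 and 0.24 for Dusp1, Dusp2, Dusp5 and Dusp6. In cluster 3 alone they were 0.10, 0.26, 0.15 and 0.30.

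**Figure D2:**
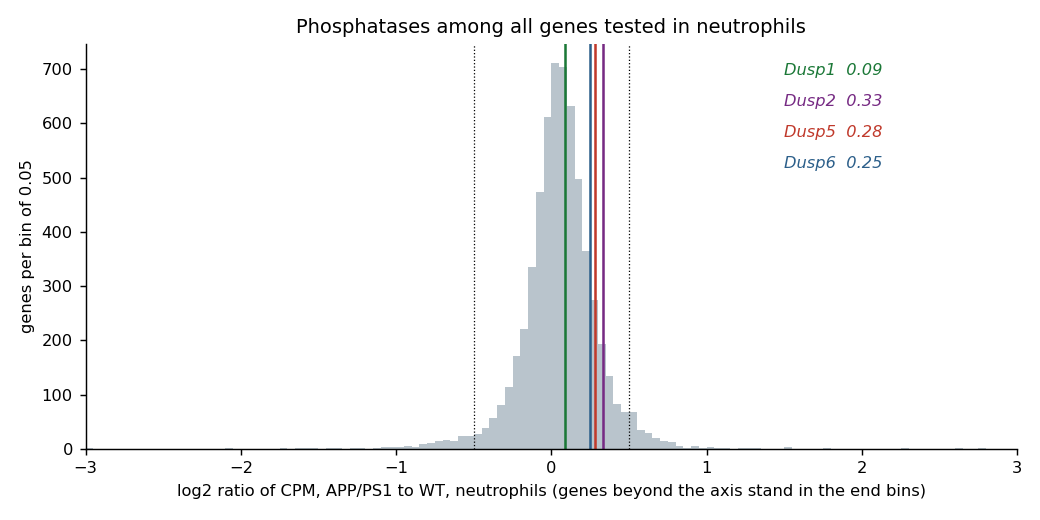
Number of genes (vertical axis) by log2 ratio of APP/PS1 to WT in neutrophils (horizontal axis, bins of 0.05), for genes that reached 200 UMIs in either library. Coloured lines mark Dusp1 at 0.09, Dusp6 at 0.25, Dusp5 at 0.28 and Dusp2 at 0.33, all right of the median of 0.06 and inside the dotted lines at 0.5 either way.

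Outside neutrophils the ratios went in both directions and the genes parted. Dusp2 was higher in APP/PS1 in both kinds of monocyte, at 0.60 (0.50 to 0.70) in classical and 0.62 (0.55 to 0.68) in nonclassical monocytes. It was the 1 phosphatase of the 4 past the fold limit in each, where 3.24% and 2.52% of genes passed, and it lay above 99.4% and 99.6% of genes. In NK cells Dusp2 fell on the other side, with a ratio of -0.52 (-0.62 to -0.42), and 0.356% of 2250 genes lay below it. It was the 1 of 3 phosphatases with enough UMIs that passed there, against 2.13% of genes. CD8 T cells and B cells had Dusp2 ratios of -0.24 (-0.42 to -0.07) and -0.36 (-0.59 to -0.12). The difference between monocytes and NK cells was not tested, since each ratio rests on 1 library a genotype. Without percentile limits on cells, Dusp2 moved to -0.40 in NK cells and to 0.41 in classical monocytes, inside the fold limit, and in NK cells it was -0.49 with TMM library sizes. At a resolution of 0.5 the larger nonclassical monocyte cluster gave 0.65 (0.58 to 0.72). The smaller one, led by Csta1 and Mal, gave 0.42 (0.28 to 0.56). Its mean log2 ratio of the nonclassical markers was 1.19, against 2.89 in the larger one. Dusp1 had 2484 and 2924 CPM in it, against 1044 and 1325 CPM in the larger one. With called doublets removed, a cluster led by Csta1 and Mal held 7 and 6 cells and got no name. What the cells of the smaller cluster are was not tested. At a resolution of 0.5 the cluster of 425 and 764 NK cells still gave -0.52. The marker rule there also gave the NK name to a cluster of 42 and 30 cells led by Cd8b1 and Cd8a, with a Dusp2 ratio of 0.12 (-0.25 to 0.49), and the sum of both gave -0.40.

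Dusp5 was lower in APP/PS1 in both kinds of monocyte and in NK, CD8 T and B cells. Its ratio was -0.29 (-0.40 to -0.18) in classical monocytes, -0.23 (-0.30 to -0.17) in nonclassical monocytes and -0.29 (-0.45 to -0.14) in NK cells. It was -0.70 (-0.94 to -0.46) in CD8 T cells, the 1 of 3 phosphatases with enough UMIs past the limit there, against 6.61% of 1317 genes. B cells gave -0.44 (-0.80 to -0.08) on fewer than 200 UMIs a library. The T cells led by Il7r and Trdc gave -0.37, with an interval that spanned 0. Neutrophils, at 0.28, went the other way, and basophils, where Dusp5 is highest, gave 0.08 (-0.06 to 0.22).

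Dusp1 was higher in APP/PS1 in most types, at 0.30 (0.27 to 0.33) in classical monocytes, 0.29 (0.26 to 0.33) in nonclassical monocytes, 0.26 (0.16 to 0.36) in NK cells and 0.31 (0.14 to 0.48) in basophils. B cells gave -0.18 (-0.33 to -0.03), a direction that turned in 3 of 10 alternatives, with values up to 0.08, and the interval in CD8 T cells spanned 0. The NK cell value was 0.02 with called doublets removed and 0.09 in cells thinned to 1000 UMIs. Erythroid cells had the largest Dusp1 ratio, 0.77 (0.67 to 0.87), past the limit together with 20.5% of genes, beside the higher neutrophil RNA in that library given above. Dusp6 parted the monocytes, with 0.46 (0.37 to 0.55) in classical and -0.27 (-0.38 to -0.17) in nonclassical monocytes. The clusters that the marker rule named nonclassical monocytes at a resolution of 0.5 differed, and the smaller one has the limits given above. The larger one gave -0.38 (-0.51 to -0.26) and the smaller one, led by Csta1 and Mal, 0.08 (-0.10 to 0.25). No phosphatase with 200 UMIs or more passed the limit in B cells, basophils, the plasma cell cluster or the T cells led by Il7r and Trdc, where 6.96%, 12.4%, 15.6% and 6.29% of genes did. The sums alone do not tell fewer cells with a transcript from less transcript a cell. In thinned NK cells, 53.2% in WT and 40.4% in APP/PS1 had a Dusp2 UMI, with means of 0.927 and 0.637 UMIs. Thinned CD8 T cells had a Dusp5 UMI in 15.98% and 10.06%. The Dusp2 share went the other way in thinned nonclassical monocytes, at 23.8% and 32.2%. Shares thus moved with the sums in these types. A cell with little transcript can show no UMI at this depth, and that part was not tested.

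**Figure D3:**
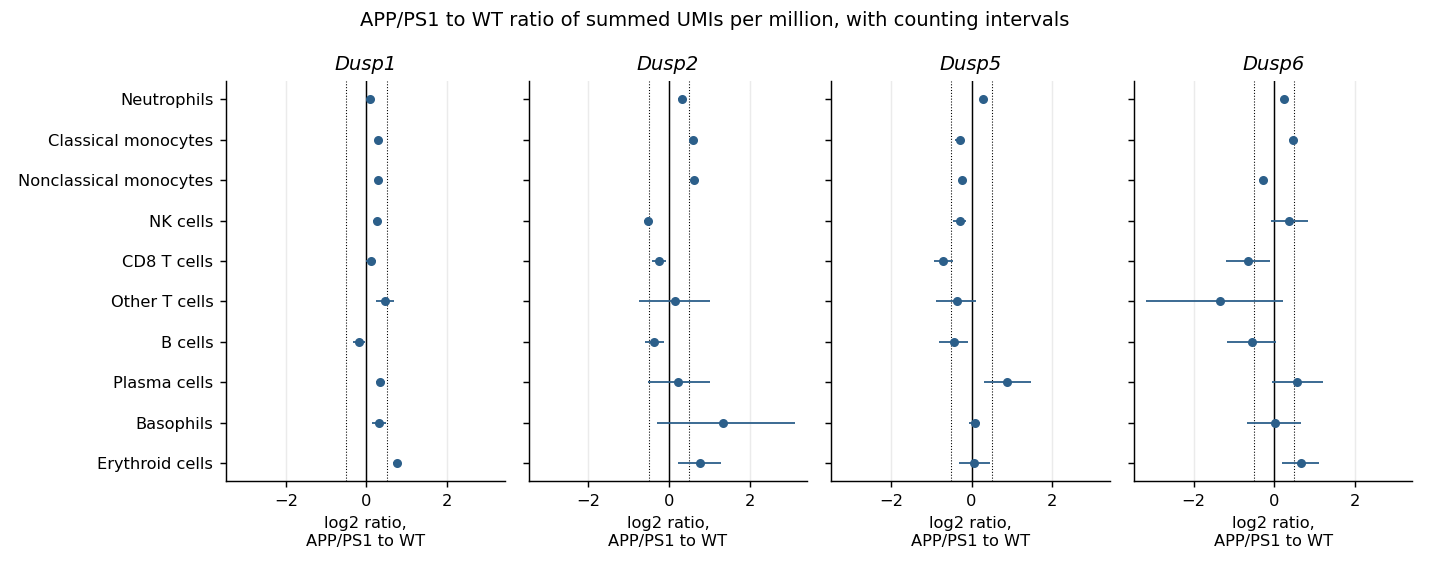
Log2 ratio of APP/PS1 to WT in CPM (horizontal axis) for each phosphatase in 10 blood cell types, with 95% counting intervals and dotted lines at the fold limit of 0.5. Dusp2 is right of 0 in monocytes (0.60 and 0.62) and left of 0 in NK cells (-0.52), and Dusp5 is left of 0 in both kinds of monocyte, NK, T and B cells.

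Neutrophils were divided into 7 clusters by anchors between the libraries, again without the phosphatases or genes that differed between the libraries. Cluster 0 (3180 WT and 3410 APP/PS1 cells) was led by stefin genes and Retnlg. The leading genes of cluster 1 (1362 and 2365 cells) were Clec4n, Slc36a3os, Dusp2, Gngt2, Csf1, Pmaip1, Traf1, Nfkbia, Lair1 and Igkc. Cluster 1 had less Retnlg than cluster 0, and Dusp2 is in its list although it was not a feature for the clustering. Cluster 2 carried platelet transcripts, cluster 3 interferon-induced Ifit genes, cluster 5 (158 and 213 cells) the granule genes Camp, Ngp and Ltf of immature neutrophils and cluster 6 mitochondrial genes. Cluster 4 had the deepest cells apart from cluster 5. Retnlg, summed over both libraries, had 16351 CPM in cluster 0 and 5055 CPM in cluster 1. It was highest in the immature cluster 5, at 25419 CPM.

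Dusp2 was highest in cluster 1 and lowest in cluster 5. Its level there was 128 and 132 CPM in the WT and APP/PS1 library, against 32.4 and 38.0 CPM in cluster 0, a 3.95-fold and 3.46-fold difference. Cluster 6, of 99 and 101 cells, came next with 92.9 and 82.3 CPM and was not separated from cluster 1 in WT, where the log2 ratio of cluster 1 to cluster 6 was 0.46 (-0.14 to 1.12), against 0.68 (0.09 to 1.33) in APP/PS1. The log2 ratio of cluster 1 to cluster 0 over both libraries was 1.88 for Dusp2, above 99.9% of 4924 genes, of which 1.65% were past 1. In cells thinned to 1000 UMIs, 9.03% of WT and 9.26% of APP/PS1 cells of cluster 1 had a Dusp2 UMI, against 3.08% and 3.11% of cluster 0, and before thinning 15.6% and 15.8% against 6.76% and 7.54%. In cluster 6 the thinned shares were 9.09% and 3.96%. A thinned cell of cluster 1 held up to 4 Dusp2 UMIs in WT and up to 11 in APP/PS1, and the variance was 1.63 and 2.02 times the mean. The same ratio there was 1.98 and 2.35 for Dusp1 and 1.35 and 1.48 for Dusp5, so a spread beyond counting was not particular to Dusp2. Called doublets were among these cells, and their part in the spread was not tested.

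Dusp5 and Dusp1 were also higher in cluster 1, by less. Dusp5 had 238 and 287 CPM there against 152 and 194 CPM in cluster 0, 1.56-fold and 1.47-fold. Dusp1 had 5191 and 5188 CPM against 3674 and 3937 CPM, 1.41-fold and 1.32-fold. Dusp6 did not share this order, with 147 and 188 CPM in cluster 1 and 168 and 191 CPM in cluster 0. The median gene had a cluster 1 to cluster 0 ratio of 0.26, so Dusp1 at 0.44 and Dusp5 at 0.63 stood above it and Dusp6 at -0.05 below it.

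The immature cells of cluster 5 separated Dusp6 from the other phosphatases. Dusp1 had 1128 and 992 CPM there, 0.307 and 0.252 of its cluster 0 level. Dusp5 had 46.4 and 46.9 CPM, 0.304 and 0.241 of that level, and Dusp2 7.13 and 13.2 CPM. Dusp6 had 146 and 191 CPM, at 0.869 and 1.003 of its cluster 0 level, with intervals of 0.717 to 1.04 and 0.878 to 1.14. Among thinned cells of cluster 5, 65.8% in WT and 52.1% in APP/PS1 had a Dusp1 UMI, against 94.97% and 94.1% in cluster 0.

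**Figure D4:**
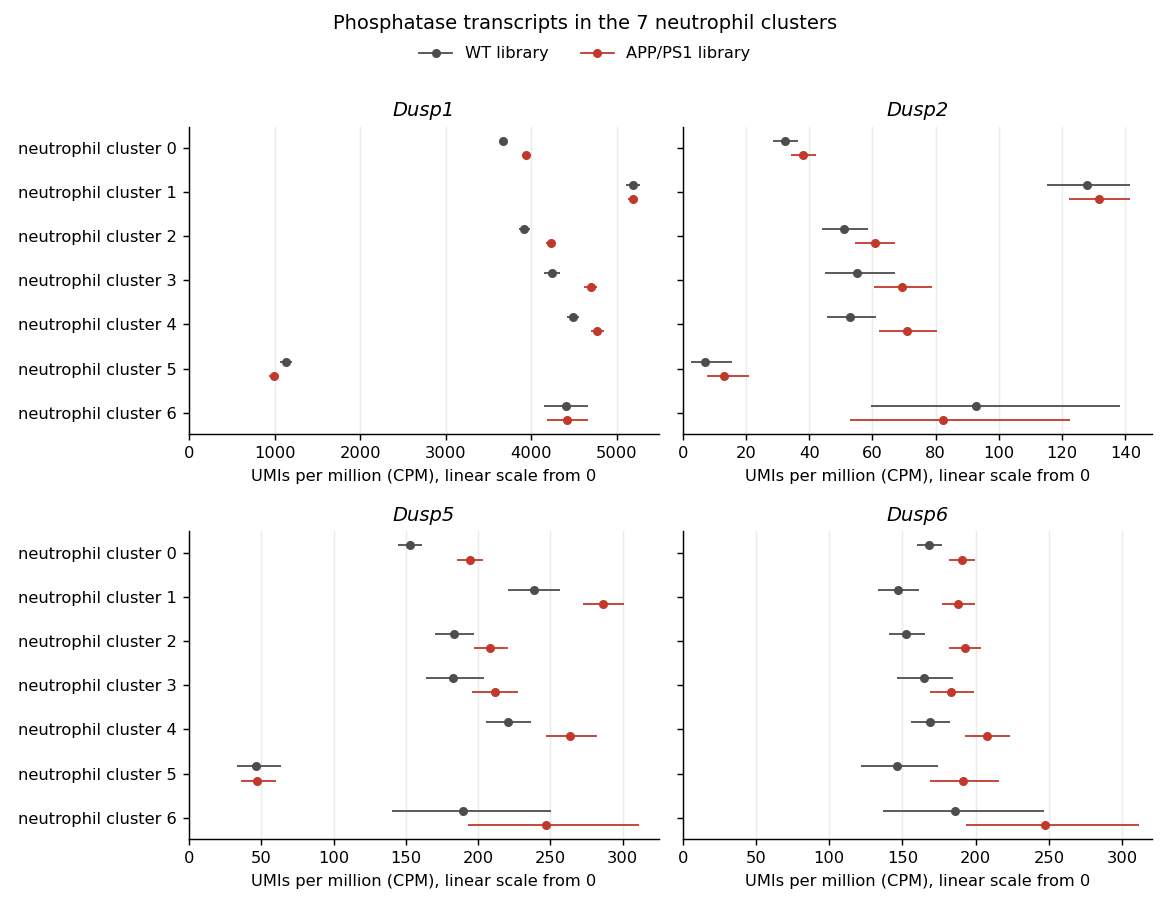
CPM (UMIs per 1000000 UMIs, linear axes from 0) of each phosphatase in 7 neutrophil clusters, with the WT library in grey, the APP/PS1 library in red and bars for the 95% counting interval. Dusp2 peaks in cluster 1 (128 and 132 CPM), Dusp1 and Dusp5 drop in the immature cluster 5 (1128 and 992, 46.4 and 46.9 CPM), and Dusp6 stays between 146 and 247 CPM in all 7.

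Between the libraries, Dusp5 and Dusp6 were higher in APP/PS1 in 7 of 7 clusters, with the interval above 0 in 5 clusters for each. Among 1934 genes with 200 UMIs in a library in each of clusters 0 to 4, 31.4% were higher in APP/PS1 in all 5 of those clusters. That share counts direction alone. No share over all genes was computed for all 7 clusters or for intervals above 0. The intervals above 0 were in clusters 0 to 4 for Dusp5, and in clusters 0, 1, 2, 4 and 5 for Dusp6. The Dusp6 ratio ranged from 0.16 in cluster 3 to 0.41 in cluster 6 and the Dusp5 ratio from 0.02 in cluster 5 to 0.38 in cluster 6. Dusp2 was higher in 6 of 7, with the interval well above 0 in cluster 4, at 0.42 (0.14 to 0.70). In cluster 0 its ratio was 0.23, with a lower bound that rounds to 0.00 and an upper bound of 0.46. In cluster 1, where Dusp2 is highest, its ratio was 0.04 (-0.14 to 0.23), and cluster 1 held a larger number of cells in APP/PS1. Dusp1 was higher in clusters 0, 2, 3 and 4, by 0.09 to 0.15, and lower in the immature cluster 5, at -0.19 (-0.31 to -0.06). That direction turned with the clustering, since the immature cells of cluster 9 of all cells (89 WT and 176 APP/PS1 cells) gave 0.10 (-0.06 to 0.27). With enough UMIs, 0 of the 4 phosphatases passed the fold limit in any cluster, where 4.63%, 4.35%, 4.87%, 6.56%, 5.74%, 6.09% and 13.5% of genes passed in clusters 0 to 6.

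The other phosphatases of the family did not share 1 direction in neutrophils. Of 6 other catalytic MAP kinase phosphatases, 2 had 200 UMIs in a library. Dusp16, which encodes an enzyme acting on JNK and p38, had 77.2 CPM in WT neutrophils and 32.0 CPM in those of APP/PS1, a log2 ratio of -1.27 (-1.39 to -1.16), and passed the fold limit. It was lower in APP/PS1 in each of the 7 neutrophil clusters, with ratios from -1.39 to -1.16. Classical monocytes had 37.2 and 18.8 CPM (-0.99) and nonclassical monocytes, where Dusp16 was highest, 555 and 431 CPM (-0.36). Dusp7, whose enzyme is ERK-selective, had 7.95 and 10.3 CPM in neutrophils, a ratio of 0.38 (0.10 to 0.65). Of 16 atypical dual-specificity phosphatases 3 had enough UMIs, 0 passed, and their ratios ran from -0.01 for Ssh2 to 0.11 for Dusp3.

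The counts for kinases are to be read against 5.87% of all genes past the limit in neutrophils. Of 9 MAP kinases 6 had enough UMIs and 0 passed, with a median of 0.05 and the extremes at Mapk13 (-0.19) and Mapk9 (0.23). Of 7 MAP kinase kinases 4 had enough and 0 passed, with a median of -0.09 and Map2k3 lowest at -0.20. Among 12 upstream kinases 11 had enough and 1 passed, Map3k8, a kinase upstream of ERK in Toll-like receptor signalling, which had 36.9 and 69.4 CPM in WT and APP/PS1 (0.91, 0.79 to 1.03), against 3.41% of all genes upward. Braf was lowest in that list at -0.30. Of 10 effector kinases 8 had enough UMIs and 0 passed (median -0.01), and of 7 ERK feedback inhibitors 2 had enough and 0 passed, Spry2 at 0.41 and Errfi1 at -0.12.

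Immediate early genes, which MAP kinase signalling is known to induce, had a higher median ratio than any of the 4 phosphatases. All 18 immediate early genes had enough UMIs, 7 passed the fold limit upward and 0 downward, against 3.41% of all genes upward and 2.45% downward, with a median of 0.47 beside 0.06 for all genes. Of the 18, 15 were higher in APP/PS1 and 3 were lower, down to -0.28. The largest ratios were those of Egr2 (0.81), Jun (0.80), Zfp36 (0.75) and Egr1 (0.68), of which Zfp36 encodes an mRNA-decay factor and the others transcription factors. Of 9 glucocorticoid-induced genes 7 had enough UMIs, and 2 passed downward, Cdkn1a (-1.28) and Per1 (-0.79), while Zbtb16 stood at 0.20 and Fkbp5 at 0.16. Of 8 heat shock and dissociation genes 4 had enough and 0 passed, with Hsp90aa1 highest at 0.31.

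**Figure D5:**
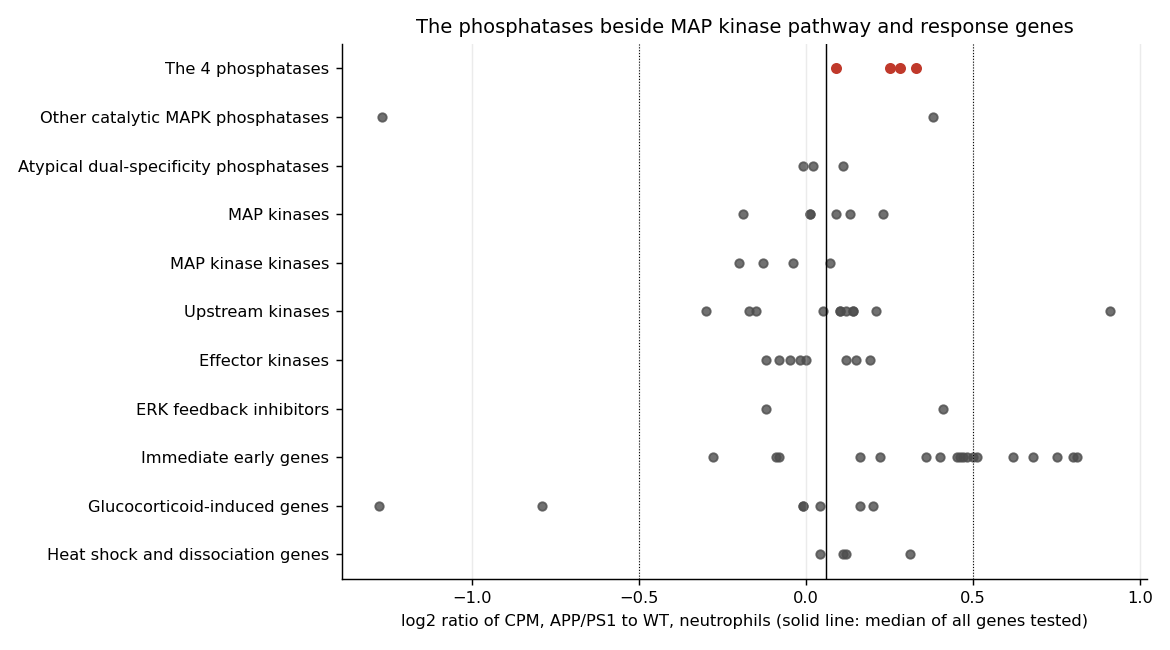
Log2 ratio of APP/PS1 to WT in neutrophils (horizontal axis) for the 4 phosphatases in red and for each pathway gene that reached 200 UMIs in either library, 1 dot a gene and 1 row a list. The phosphatases lie between 0.09 and 0.33, Dusp16 at -1.27 and Map3k8 at 0.91 stand apart in their lists, and the immediate early genes reach 0.81.

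Across the 20 points formed by 10 cell types in 2 libraries, the genes most like each phosphatase differed. Pearson's r of log2(CPM + 1) was computed over 10522 other genes, and the points share libraries and cell sums. Nearest to Dusp1 were Ccpg1 (0.961), C5ar1 (0.958), which encodes the C5a receptor, Snap23 (0.953), Ston2 (0.951) and Taldo1 (0.943). Among the genes nearest to Dusp6 were Nfe2 (0.942), a transcription factor gene, Cask (0.939) and Fes (0.932), which encodes a tyrosine kinase. Nearest to Dusp2 were Adora2a (0.895), the adenosine A2a receptor, Lrmp (0.885), Malt1 (0.880), Pogk (0.867) and Setbp1 (0.864). Nearest to Dusp5 were Klf7 (0.901), Cdh1 (0.897), the E-cadherin gene, Dnajb1 (0.889), Gm20342 (0.889) and 1110028F11Rik (0.882). Among the phosphatases themselves r was 0.787 for Dusp1 with Dusp6, 0.386 for Dusp5 with Dusp6, 0.365 for Dusp1 with Dusp5 and -0.391 for Dusp1 with Dusp2.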

How the data were processed

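Single-cell RNA-seq of enriched blood neutrophils was available as 2 libraries made with a 10x kit. The authors deposited UMI counts for each gene and cell, made with Cell Ranger 5.0.0 (version from the submitters' processing notes) and mm10, with no normalization. In each library, cells below the 5th or above the 95th percentile for detected genes or for UMIs were removed, as were those with more than 10% mitochondrial UMIs. Kept cells were clustered in Seurat 5.3.0 (R 4.3.3; 2000 variable features less the phosphatases and listed genes, 15 principal components, resolution 0.2), and clusters were named by the highest mean log2 ratio of fixed markers, at least 0.5 with 3 markers. Neutrophils were re-clustered on anchors between the libraries at a resolution of 0.3. Scrublet (scanpy 1.11.5, expected rate 8%) set a threshold of 0.217 in WT, which was applied to both libraries because its own threshold called 0 of 17645 APP/PS1 cells; the 1548 and 1286 called cells were kept in the values given and removed in an alternative.

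UMIs were summed for each type and library and scaled to CPM, for which Poisson intervals were exact, and the interval of a ratio was conditional on its summed UMIs. Tested on simulated data for the neutrophil comparison, 95.1% of intervals over 6151 genes held the true ratio. That does not cover the spread between real cells. In thinned neutrophils the variance of Dusp1 was 1.89 times the mean in WT and 2.21 times in APP/PS1, and the intervals leave this out. Each cell was also thinned to 1000 UMIs. TMM sizes came from edgeR 4.0.16. Genes named are the 4 phosphatases, up to 4 genes of each list with the largest absolute neutrophil ratio and at least 200 UMIs in a library, and the 5 genes most like each phosphatase, of which some are not reported here for Dusp6. Promoters came from RefSeq windows of GRCm38.p6, where all 4 genes were found. The phosphatases, lists and markers were chosen with earlier results of these data known.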

Additional observations from a re-analysis of the deposited data

Results flagged for a closer look

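Some ratios of APP/PS1 to WT passed 0.5 on the log2 scale in opposite directions in a pair of cell types, and none of these differences was tested. Dusp2 was higher in APP/PS1 in classical monocytes (0.60), nonclassical monocytes (0.62) and erythroid cells (0.76) and lower in NK cells (-0.52). The erythroid value rests on 67 WT and 58 APP/PS1 UMIs, and neutrophil genes in those cells were at 18.6% and 27.0% of the neutrophil level. Dusp5 was higher in the plasma cell cluster (0.87, on 35 and 102 UMIs) and lower in CD8 T cells (-0.70). Dusp6 was higher in erythroid cells (0.66, on 93 and 75 UMIs) and lower in CD8 T cells (-0.64, on 70 and 51 UMIs). The part of neutrophil RNA in the erythroid and plasma cell values was not tested.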

How the results depend on the processing

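All 14 alternatives kept each phosphatase higher in APP/PS1 neutrophils, with log2 ratios of 0.03 to 0.13 for Dusp1, 0.17 to 0.36 for Dusp2, 0.21 to 0.34 for Dusp5 and 0.18 to 0.30 for Dusp6, and none reached 0.5. Values that left the counting interval were, for cells typed by their own markers, 0.12 (Dusp1), 0.17 (Dusp2) and 0.21 (Dusp5); with TMM library sizes, 0.03 (Dusp1), 0.22 (Dusp5) and 0.18 (Dusp6); for neutrophils with no UMI of other types' markers (1059 WT and 1287 APP/PS1 cells), 0.13 (Dusp1) and 0.21 (Dusp2). Dusp1 also gave 0.05 with totals without abundant gene classes and 0.04 with equal weights over clusters. Cluster 0 of all cells alone, added after the data were seen, gave 0.11 (Dusp1) and 0.34 (Dusp5). The causes were not tested. Alternatives for the other cell types were also chosen after seeing the data.

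Ranks were taken among types with at least 50 cells in each library, which were 9 as reported (without basophils) and 7 to 9 under the alternatives. Neutrophils ranked 1 for Dusp1 and Dusp6 under all 11. For Dusp2 they ranked 7 of 9, then 6 of 8 with doublets removed or a resolution of 0.5, 6 of 7 with cells typed by their own markers, where fewer types were ranked, and 8 of 9 with TMM sizes or totals without abundant classes. They ranked 3 of 9 for Dusp5, moving, also among 9, to 4 with percentiles over both libraries or 30 principal components, 2 with TMM sizes and 5 without abundant classes. Genes past the fold in neutrophils numbered 361, 812 with at least 50 UMIs and 40 with a fold of 1. No paired analysis was possible because each genotype has 1 library. Depth limits the phosphatases other than Dusp1 in rare types, where sums were under 200 UMIs.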

Other observations

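Platelets were too few to enter the comparisons, with 16 cells in each library. Dusp1 had 12 UMIs in WT and 44 in APP/PS1 platelets, Dusp2 had none in either library, and Dusp5 and Dusp6 each had 1 UMI in APP/PS1 and none in WT. Within the B cell and CD8 T cell clusters, Dusp10, which encodes a JNK and p38 phosphatase, was higher than in neutrophils, with 53.3 and 58.5 CPM in B cells, 45.8 and 27.4 CPM in CD8 T cells and 0.643 and 0.509 CPM in neutrophils of the WT and APP/PS1 library. Dusp4, which encodes another nuclear MAP kinase phosphatase, had 3 UMIs in the neutrophils of each library. Spry2, an ERK feedback inhibitor, had 246 and 239 CPM in WT and APP/PS1 basophils against 7.17 and 9.50 CPM in neutrophils. In cluster 1 of the neutrophils the immediate early gene Nr4a1 had 560.3 and 645 CPM against 256 and 263 CPM in cluster 0, and Atf3 had 719 and 923 CPM against 355 and 489 CPM. These genes were picked for mention after their values were seen.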
